A study of Arabidopsis thaliana with 3 samples.

Results

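The 42 genes described here encode the nuclear-coded antenna and peripheral subunits of the photosystems, together with the Rubisco small subunit. They were taken by locus identifier from a fixed list, with no cut on a measured value. The list was chosen with earlier results of these data known. All 42 were found among the 32678 loci of the count files. They comprise 20 light-harvesting antenna genes (LHCB1 to LHCB6 of photosystem II and LHCA1 to LHCA6 of photosystem I), the 4 RBCS genes, 10 PSA genes of photosystem I and 8 PSB genes of photosystem II. The series measured RNA in 1 group of 3 libraries from dissected inflorescence meristems of Arabidopsis thaliana Col-0, the common laboratory wild type, with no transgene and no treatment. Plants had 4 weeks of short days (8 h of light) and then 2 weeks of long days (16 h of light). Each library pooled 10 inflorescences from which flower buds older than the stage named P5 had been taken off, so that a level is an average over dome cells and the primordia still attached. Since all libraries share 1 genotype, age and tissue, no comparison between conditions could be made, and only levels, ratios between genes and the spread between pools are given.

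In the chloroplast, antenna proteins bind chlorophyll and pass light energy to the reaction centres of photosystem II and photosystem I. The reaction-centre cores are encoded by the chloroplast genome, while the antenna proteins and many peripheral subunits are encoded in the nucleus, made in the cytosol and imported. Rubisco fixes carbon dioxide with large subunits made in the chloroplast and small subunits encoded by the nuclear RBCS genes. In a shoot tip, plastids of the youngest cells are small proplastids, and photosynthetic membranes are built up as primordia grow out.

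Library depth was 29078107, 28933042 and 27236559 nuclear counts in replicates 1, 2 and 3, and 1 CPM (a count scaled to nuclear library size) stood for 29.1, 28.9 and 27.2 counts. Levels of different genes are compared as a length-normalised value, called TPM-like, in which CPM was divided by exon length and rescaled to 1 total per library. Of 5 genes listed as marks of the labelled tissue, 4 were expressed at 1 CPM or more in each library. The meristem gene STM (98.1, 126 and 116 CPM) and the flower meristem gene AP1 (249, 259 and 282 CPM) were high in all 3 libraries. LFY had 77.0, 82.5 and 107 CPM and the organiser gene WUS 3.78, 3.32 and 4.74. CLV3 had 0.688, 0.899 and 1.1 CPM and so did not reach 1 CPM in replicates 1 and 2. Nothing in the labels ties the pools to separate sowings or dissections, so the p-values below cover pool-to-pool spread alone, part of which may be technical.

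Several members are near copies of one another, and the sequences show how far reads can be assigned to each. The 5 LHCB1 genes are shown first because they include the highest member and the one that varied most. Below are 90 coding bases of each, the stretch with the most differences from LHCB1.3, read 5′ to 3′ on the coding strand (RefSeq, TAIR10.1). Capitals mark bases that differ from LHCB1.3.
LHCB1.3: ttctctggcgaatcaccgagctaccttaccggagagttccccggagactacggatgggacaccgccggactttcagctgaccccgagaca
LHCB1.1: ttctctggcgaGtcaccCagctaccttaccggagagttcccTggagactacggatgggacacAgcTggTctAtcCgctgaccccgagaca
LHCB1.2: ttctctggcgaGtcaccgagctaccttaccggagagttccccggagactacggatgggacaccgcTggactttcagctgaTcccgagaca
LHCB1.4: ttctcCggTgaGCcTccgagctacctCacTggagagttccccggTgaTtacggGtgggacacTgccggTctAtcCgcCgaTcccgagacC
LHCB1.5: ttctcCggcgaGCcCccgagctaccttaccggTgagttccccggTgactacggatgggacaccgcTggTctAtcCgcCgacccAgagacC
LHCB1.1, LHCB1.2 and LHCB1.3 lie within chr1:10472280-10479114, and LHCB1.4 and LHCB1.5 lie side by side within chr2:14522524-14525918. In this stretch LHCB1.2 differed from LHCB1.3 at 3 bases, LHCB1.1 at 8, LHCB1.5 at 13 and LHCB1.4 at 17. Over the whole coding sequence, identity to LHCB1.3 was 96.4% for LHCB1.2, 96.1% for LHCB1.1, 87.4% for LHCB1.4 and 718 of 798 bases for LHCB1.5, counted over aligned bases without gaps.

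The RBCS genes are shown for the same reason, since 1 of the 4 varied between libraries. The 90 coding bases are again the stretch with the most differences, here from RBCS1A. Capitals mark bases that differ from RBCS1A.
RBCS1A: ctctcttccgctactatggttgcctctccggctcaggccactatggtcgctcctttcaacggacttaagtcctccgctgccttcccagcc
RBCS1B: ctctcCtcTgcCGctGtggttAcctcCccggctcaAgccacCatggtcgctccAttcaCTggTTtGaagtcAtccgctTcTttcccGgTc
RBCS2B: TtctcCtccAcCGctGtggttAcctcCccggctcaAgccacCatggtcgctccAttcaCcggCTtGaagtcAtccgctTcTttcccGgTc
RBCS3B: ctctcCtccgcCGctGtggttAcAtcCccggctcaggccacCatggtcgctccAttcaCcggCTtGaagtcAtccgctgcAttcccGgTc
RBCS1A lies at chr1:25048158-25049667, and the 3 B genes form a cluster within chr5:15376988-15385320. The B genes differed from RBCS1A at 17 to 20 of these 90 bases. RBCS1B and RBCS2B were 97.3% identical over their coding sequences, while each was 90.4% and 90.6% identical to RBCS1A.

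In spite of this likeness, few stretches as long as a read were shared. Of the 42 genes, 33 had no exonic 100-base window with an exact copy elsewhere in the genome. In the other 9 genes the share of such windows ran from 1.51% in LHCB1.2 to 13.7% in LHCB2.2. LHCB1.3 shared 37 of 1131 windows with LHCB1.1, LHCB1.4 shared 40 of 1213 with LHCB1.5, LHCB2.1 and LHCB2.2 shared 129, RBCS1B and RBCS3B shared 131, and RBCS2B shared 0 of 638. Reads with 1 or 2 sequencing errors can still be placed wrongly, and the rule used for reads with several places is not given in the sources used here, so the split among the copies is less certain than the level of a whole family. In addition, 14 members overlap a gene on the opposite strand and 2 (PSAD2 and PSBP1) a gene on the same strand. The strand setting of the counting is not given either.

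All 42 genes were expressed at 1 CPM or more in each library, against a background of 63.2% of 26712 nuclear protein-coding genes. Of the 42, 34 reached 100 CPM in each library (background 7.25%) and 8 reached 1000 CPM (background 0.105%). Their median TPM-like level was 613, beside 9.64 over all nuclear protein-coding genes, and 26 of 42 were in the top 1% of those genes by mean level (267 genes). Together the genes took 877614, 755891 and 846686 counts, which is 3.02%, 2.61% and 3.11% of nuclear counts in replicates 1, 2 and 3 (mean 2.91% ± 0.264, SD, n = 3). The 5 LHCB1 genes alone took 0.855% ± 0.0646 and LHCB1.3 alone 0.476% ± 0.0188.

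**Figure D1:**
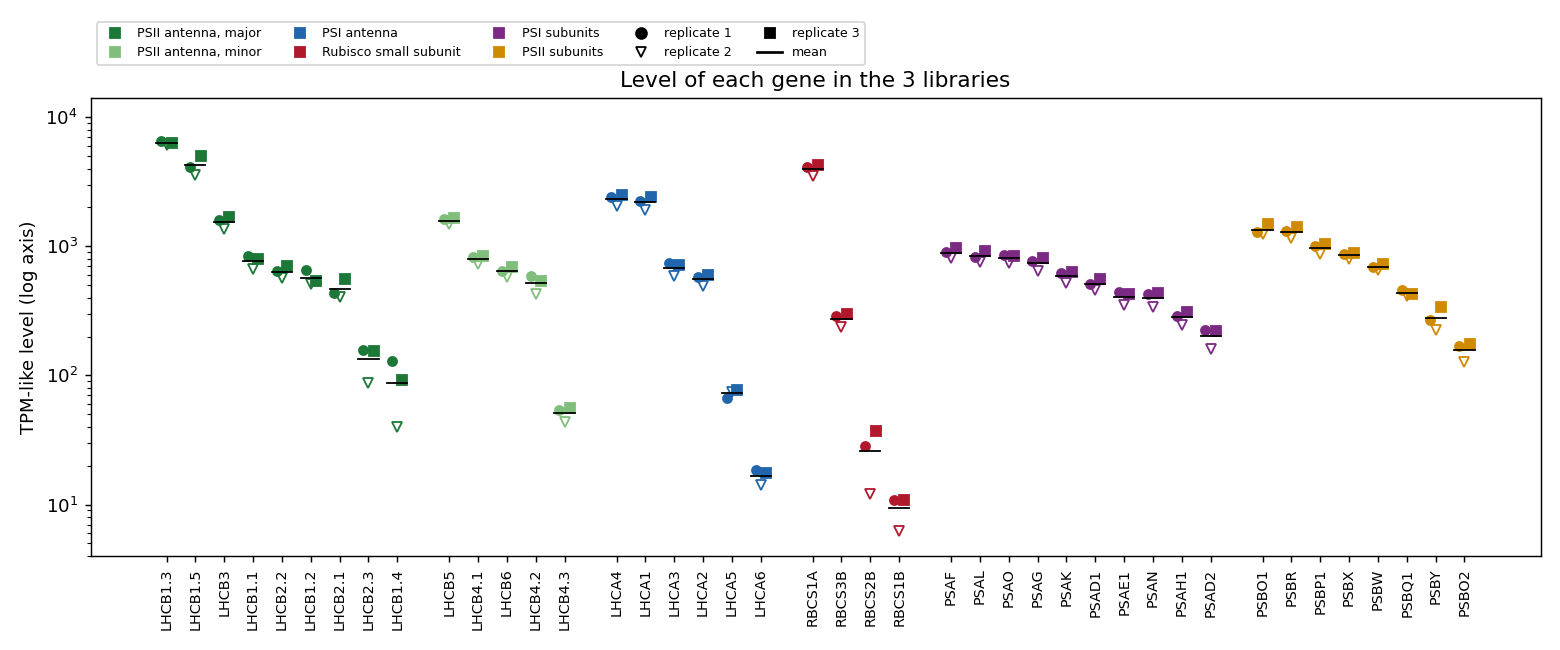
TPM-like level (log axis) of each of the 42 genes in the 3 libraries, grouped by role; circles, open triangles and squares are replicates 1, 2 and 3 and the bar is their mean. Levels ran from 9.33 for RBCS1B to 6349 for LHCB1.3, and the open triangle of replicate 2 is the lowest symbol for all genes but LHCA5.

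The major antenna of photosystem II, the trimeric light-harvesting complex made of LHCB1, LHCB2 and LHCB3 proteins, held the highest levels. LHCB1.3 (AT1G29930, named CAB1 in the reference) had TPM-like levels of 6563, 6125 and 6359 in replicates 1, 2 and 3, the highest of all nuclear protein-coding genes by mean level. It was followed within the family by LHCB1.5 (AT2G34420, named LHB1B2) at 4087, 3588 and 5002. These copies lie on different chromosomes and their ranges did not overlap each other or those of the other 3 copies. LHCB1.1 stood at 841, 662 and 800 and LHCB1.2 at 655, 507 and 537, while LHCB1.4 had only 130, 39.8 and 92.0. LHCB1.4 was thus the lowest copy of the family in each library.

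LHCB2 genes encode antenna subunits that are phosphorylated in state transitions, and the highest in RNA level were LHCB2.2 (641, 569 and 700 TPM-like) and LHCB2.1 (435, 408 and 557). LHCB2.3 was lower at 158, 87.9 and 155. LHCB3, the single-copy subunit of the intermediate trimer, stood at 1588, 1373 and 1690, above all 3 LHCB2 genes. Summed over copies, LHCB1 reached 11996 ± 965 and LHCB2 1237 ± 174 TPM-like (SD, n = 3).

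The minor antenna proteins LHCB4, LHCB5 and LHCB6 sit as monomers between the trimers and the photosystem II core. LHCB5 (CP26) was highest, with TPM-like levels of 1625, 1479 and 1644. LHCB4.1 followed at 830, 728 and 839, LHCB6 (CP24) stood at 644, 578 and 693, and LHCB4.2 at 588, 424 and 541. LHCB4.3, a divergent copy of 72.9% to 74.1% coding identity to the other LHCB4 genes, was lowest at 54.4, 43.3 and 55.8.

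The antenna of photosystem I split into a pair of high genes, a pair of intermediate genes and a pair of low ones. LHCA4 (2416, 2050 and 2487 TPM-like) and LHCA1 (2242, 1901 and 2412), whose proteins pair as a dimer, overlapped in range. LHCA3 (742, 593 and 718) and LHCA2 (576, 494 and 604), which form the other dimer, also overlapped. LHCA5 stood at 67.4, 74.8 and 77.7 and LHCA6 at 18.5, 14.1 and 17.5; both proteins are minor and help to link photosystem I to the chloroplast NADH dehydrogenase-like complex. LHCA6 was at the 58.98th percentile of nuclear protein-coding genes, while LHCA4 was at the 99.96th.

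Among the Rubisco small subunit genes 1 copy held almost all of the RNA. RBCS1A (AT1G67090) had TPM-like levels of 4076, 3479 and 4275, and made up 92.7% of the family's mean level. RBCS3B stood at 289, 239 and 297, RBCS2B at 28.5, 12.1 and 37.4, and RBCS1B at 10.9, 6.29 and 10.8. RBCS1B and LHCA6 were the lowest of the 42 genes. The reference gives RBCS1B an exon length of 1894 bases for a coding length of 546, so its per-length level depends on that annotation.

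Subunits of photosystem I were the most even class. The highest were PSAF, a docking subunit for plastocyanin, at 902, 806 and 967 TPM-like, PSAL at 822, 762 and 917, and PSAO at 856, 747 and 840. PSAL and PSAO lie at the side where the mobile antenna binds. Next came PSAG (mean 738 ± 88.4), PSAK (590 ± 64.0), PSAD1 (507 ± 46.9), PSAE1 (408 ± 48.3) and PSAN (397 ± 53.2, SD, n = 3 each). PSAH1 (291, 244 and 309) and PSAD2 (226, 161 and 220) were lowest. The means of the 10 genes thus ran from 202 to 892. This order depends in part on the length used. Divided by coding length in place of exon length, PSAH1 had a mean of 464, above PSAE1 (419) and PSAN (412). PSAL then had 625, below PSAG (662) and PSAK (641).

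Of the photosystem II subunits, PSBO1, PSBR and PSBP1 were highest. PSBO1, the manganese-stabilising protein, stood at 1281, 1255 and 1496 TPM-like, PSBR, which helps to hold the oxygen-evolving proteins, at 1313, 1169 and 1411, and PSBP1 at 1004, 864 and 1049. PSBX (853 ± 48.9), PSBW (697 ± 36.6) and PSBQ1 (431 ± 23.1) followed (SD, n = 3 each). PSBY (268, 226 and 338) and PSBO2 (169, 126 and 175) were lowest. By coding length PSBX (mean 973) stood above PSBP1 (925). Over the whole set, 32 of 41 neighbouring pairs in the order of means overlapped in range, so that the order within the middle of the list was not resolved by 3 libraries.

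Ratios between copies of a gene, and between related genes, were computed within each library, as log2 of the mean TPM-like level per gene. With 3 libraries the exact two-sided sign-flip permutation test cannot give a p below 0.25, and this was its value for all 14 ratios. RBCS1A exceeded the mean B copy by 5.22, 5.34 and 5.22 log2 units (mean 5.26 ± 0.07), or 38.3-fold. LHCA1 to LHCA4 exceeded LHCA5 and LHCA6 by 4.99 ± 0.15, and LHCB1 exceeded LHCB2 by 2.55 ± 0.09. As sums over genes, which also count the number of copies on each side, these were 12.8-fold for RBCS, 63.6-fold in place of 31.8-fold for LHCA and 9.74-fold in place of 5.85-fold for LHCB1 over LHCB2. PSBO1 exceeded PSBO2 by 3.11 ± 0.20, PSAD1 exceeded PSAD2 by 1.34 ± 0.18, LHCB4.1 exceeded LHCB4.2 by 0.64 ± 0.14 and LHCB4.2 exceeded LHCB4.3 by 3.33 ± 0.09. Each of these had the same sign in 3 of 3 libraries and was larger than its SD.

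Smaller or less even ratios were those between the LHCB1 clusters and within LHCB2. The chromosome 1 copies exceeded the chromosome 2 copies by 0.35, 0.42 and 0.01 log2 units, a mean of 0.26 ± 0.22 that is close to its spread. By coding length it was 0.49 ± 0.22, with no length correction 0.50 ± 0.22, and as a sum over the 3 and 2 copies 0.85 ± 0.22, so its size rests on the length and on the count of copies. LHCB2.1 with LHCB2.2 exceeded LHCB2.3 by 1.77, 2.48 and 2.02 (4.25-fold, or 8.50-fold as a sum). PSBP1 exceeded PSBP2, a second copy outside the 42 genes with 50, 40 and 30 counts, by 8.76 ± 0.37 (433-fold, or 277-fold by coding length). For PSAE1 over PSAE2 (-0.11 ± 0.01), PSAH1 over PSAH2 (-0.35 ± 0.20) and PSBQ1 over PSBQ2 (0.26 ± 0.08) the sign turned with coding length (0.31, 0.53 and -0.05), so the data do not say which copy is higher.

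**Figure D2:**
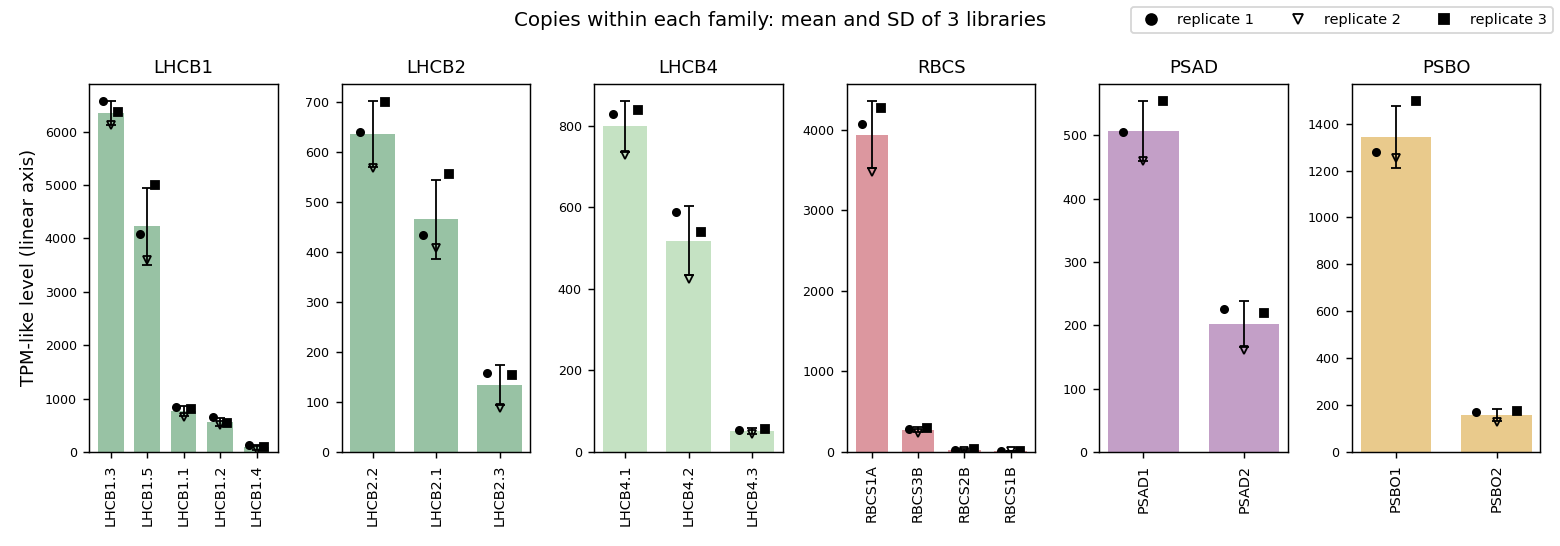
TPM-like level (linear axis, own scale in each panel) of the copies in the 6 families with several listed copies; bars are means, whiskers SDs of 3 libraries, symbols the libraries. RBCS1A, PSBO1 and PSAD1 stand above their other copies, with 3943, 1344 and 507 against at most 275, 157 and 202, and LHCB1.3 and LHCB1.5 together make up most of LHCB1.

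Nearly all of the genes had their lowest value in the same pool. By TMM-scaled CPM (CPM corrected for composition), 41 of 42 were lowest in replicate 2, against 34.5% of the 18334 nuclear genes tested and 39.6% of those at 100 CPM or more in each library. LHCA5 was the exception, with 44.3, 47.9 and 51.4 TMM-scaled CPM. Replicate 3 was highest for 29 genes (background 31.7%), replicate 1 for 13 (background 32.2%) and replicate 2 for 0. Replicate 2 was below replicate 1 in 41 of 42 (background 49.9%) and below replicate 3 in 42 of 42 (background 48.5%).

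The size of the difference was modest for most genes. As log2 of replicate 2 over the mean of replicates 1 and 3, a measure chosen after the values were seen, the median over the 42 genes was -0.31, and it was 0.00 over all genes tested (quartiles -0.14 and 0.15). Of the 42 genes, 33 lay between -0.4 and -0.1, and 8 were below -0.4. The class medians were -0.32 for the major and -0.25 for the minor photosystem II antenna, -0.32 for the photosystem I antenna, -0.33 for photosystem I subunits, -0.23 for photosystem II subunits and -0.58 for the 4 RBCS genes. Within RBCS, the higher copies RBCS1A and RBCS3B were at -0.31 and -0.34, and the low copies RBCS1B and RBCS2B at -0.83 and -1.49.

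**Figure D3:**
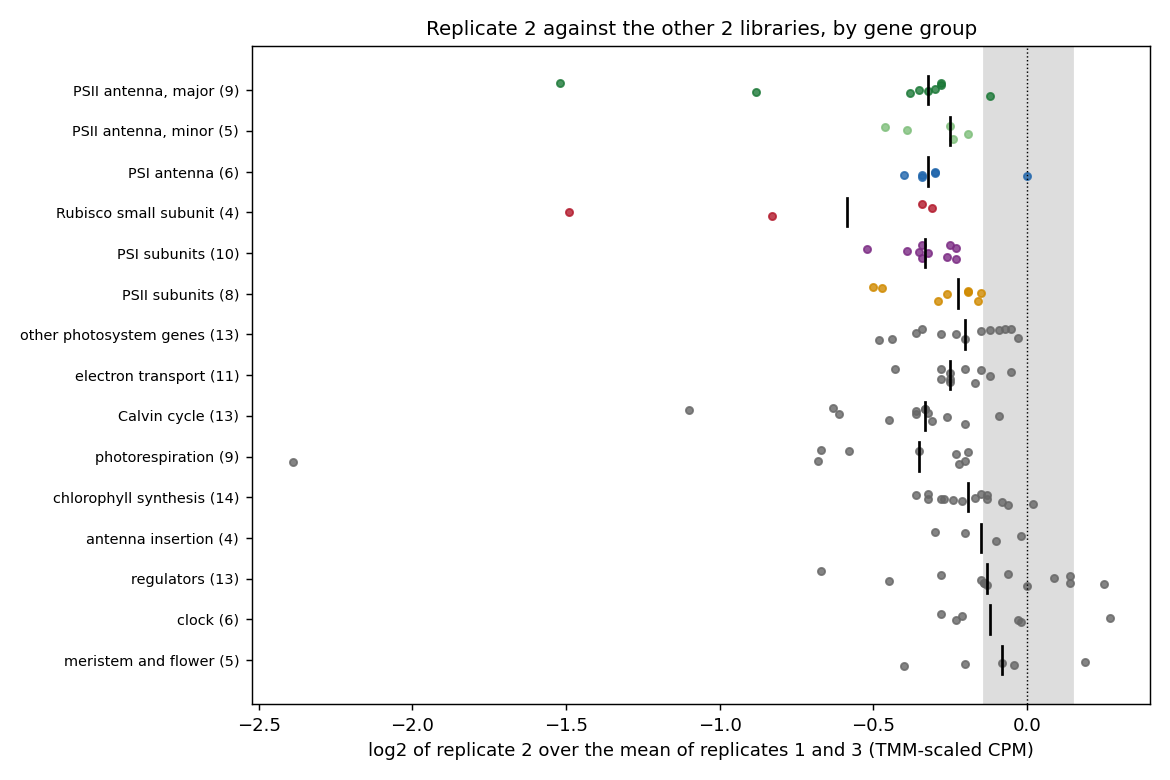
Log2 of replicate 2 over the mean of replicates 1 and 3 (TMM-scaled CPM) for each gene, by class and by related gene list, number of genes in brackets; the vertical bar is the median, the grey band and dotted line the quartiles and median of all 18334 genes tested. Points of the 6 coloured classes lie left of the dotted line except LHCA5 at 0.00, with LHCB1.4 at -1.52 and RBCS2B at -1.49 farthest left.

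For most single genes this difference was not called by a test of variation between libraries. On simulated data that test recovered 38 of 100 genes changed 2-fold in 1 library, so an uncalled gene is not shown to be even. Quartiles of the log2 difference were -0.39 and -0.25 for the 42 genes. They were -0.14 and 0.07 for nuclear protein-coding genes at 100 CPM or more in each library. With edgeR's goodness-of-fit test over all 18334 genes (Benjamini-Hochberg), 2 of 42 varied beyond the trend, against a background of 2.52%. LHCB1.4 had 3040, 921 and 1986 counts, or 105, 31.8 and 72.9 CPM (edgeR goodness of fit, adjusted p = 4.11e-08, highest over lowest 3.34). RBCS2B had 476, 199 and 575 counts, or 16.4, 6.88 and 21.1 CPM (edgeR goodness of fit, adjusted p = 0.00178, highest over lowest 3.20). LHCB2.3 had 142, 78.4 and 137 CPM and did not pass (edgeR goodness of fit, adjusted p = 0.0787). All 3 were lowest in replicate 2, and without that library neither call was made.

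The 8 genes below -0.4 were LHCB1.4, RBCS2B, LHCB2.3, RBCS1B, PSAD2, PSBO2, PSBY (-0.47), which has no other listed copy, and LHCB4.2 (-0.46), the middle copy of its family. In all 6 families with several listed copies, the copy with the lowest level had a larger difference than the copy with the highest, a pattern noted after the values were seen. LHCB1.4 was at -1.52 against -0.12 for LHCB1.3, LHCB2.3 at -0.88 against -0.28 for LHCB2.2, and RBCS1B at -0.83 against -0.31 for RBCS1A. PSAD2 was at -0.52 against -0.25 for PSAD1, PSBO2 at -0.50 against -0.19 for PSBO1, and LHCB4.3 at -0.39 against -0.24 for LHCB4.1. With copies outside the 42 genes, the pattern did not hold for PSBP2, the far lower copy, at -0.07 against -0.29 for PSBP1. For PSAE, PSAH and PSBQ the data do not say which copy is lower. Over the 42 genes, level and difference had a Spearman rho of 0.56, a description across genes that share the same 3 libraries. The LHCB1 copies of each chromosome, LHCB2.1 with LHCB2.2, and the B copies of RBCS were also each summed. None of the 36 rows was then called by edgeR's goodness-of-fit test (background 2.51%). By the same test, 1 row had an unadjusted p under 0.05.

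Other genes of photosynthesis lay on the same side, beside a background of 34.5% of all genes tested that were lowest in replicate 2. All 13 Calvin cycle genes were lowest in replicate 2 (median log2 difference -0.33), among them the highest of the list, the glyceraldehyde-3-phosphate dehydrogenase gene GAPA at 722, 634 and 800 CPM, its regulator CP12-1 at 325, 254 and 294, and Rubisco activase RCA at 472, 406 and 603. Of 11 electron transport genes 9 were lowest there (median -0.25), with ferredoxin FD2 at 343, 330 and 394 CPM, plastocyanin PETE2 at 490, 407 and 470 and the Rieske protein gene PETC at 260, 234 and 282. Of 14 chlorophyll synthesis genes 12 were lowest there (median -0.19), with CRD1 at 714, 615 and 738 CPM, PORB at 854, 637 and 641 and the magnesium chelatase gene GUN5 at 639, 583 and 777. None of the Calvin cycle and electron transport genes varied beyond the trend, and of the chlorophyll genes 1 did (background 2.52%). It was the protochlorophyllide reductase gene PORA at 26.0, 14.1 and 9.40 CPM (edgeR goodness of fit, adjusted p = 0.00674).

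The remaining photosystem genes were less uniform. Of 13 further nuclear photosystem and antenna-like genes, 7 were lowest in replicate 2 (median -0.20, background 34.5%), and 11 were expressed. Their highest members were PSBTN (mean 448 TPM-like), PSAE2 (439) and PSBQ2 (360), and the early light-induced genes ELIP1 and ELIP2, which accompany light stress, had 27, 43 and 60 counts and 24, 27 and 34 counts. The 4 genes that insert antenna proteins into the membrane were all expressed, led by ALB3 (mean 105 TPM-like), CPSRP43 (99.9) and CPSRP54 (95.8). Of these 4 genes, 3 were lowest in replicate 2 (median -0.15, background 34.5%).

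Regulators of these genes had a share of lowest values in replicate 2 close to that of all genes. Of 15 regulators 13 were expressed, 13 were tested, 5 were lowest in replicate 2 (38.5%, background 34.5%) and 0 varied beyond the trend (edgeR goodness of fit). GLK1 and GLK2, paired transcription factors that activate antenna and chlorophyll genes, had 13.4, 13.6 and 11.5 and 28.5, 39.0 and 35.2 CPM. GLK2 was thus lowest in replicate 1, and GLK1 in replicate 3. The ratio of GLK1 to GLK2 was -1.41 ± 0.28 log2 units (SD, n = 3). HY5, a light-signalling factor, stood at 11.9, 9.06 and 16.0 CPM, the retrograde signalling gene GUN1 at 209, 248 and 226, and the plastid sigma factor genes SIG6 and SIG1 at 96.7, 88.1 and 93.3 and at 67.5, 56.7 and 66.1. CGA1 had 2, 1 and 2 counts and ABI4 was listed at 0, which allows up to 0.103, 0.104 and 0.110 CPM.

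Markers of other cells and of time of day were set beside the low replicate 2. Of 10 genes listed as marks of mature green leaf, which are photorespiration genes and the carbonic anhydrase gene CA1, 9 were expressed. Of 9 tested, 7 were lowest in replicate 2 (median -0.35, background 34.5%), while GLDP1 and GLDP2 were lowest in replicate 1. The summed level of the list was 1684, 1573 and 2179 CPM. The highest were GLDP2 (563, 610 and 793 CPM), SHM1 (220, 199 and 274) and GDCH (109, 91.2 and 97.1). CA1 alone of this list varied beyond the trend (background 2.52%), at 32.1, 7.19 and 41.0 CPM (edgeR goodness of fit, adjusted p = 2.43e-13). PGLP1 had 1, 8 and 7 counts, and all 1304 of its exonic windows have an exact copy in another gene, AT5G36790. The guard cell genes MYB60 (14, 8 and 8 counts) and KAT1 (10, 25 and 3 counts) were below 1 CPM in all libraries. FAMA had 3.92, 3.04 and 2.97 CPM, for a list sum of 4.75, 4.18 and 3.38.

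The tapetum genes AMS (58.3, 0.38 and 0.0367 CPM) and ACOS5 (46.2, 0.415 and 0.0734) were high in replicate 1 and not in replicates 2 and 3. With MS1, listed at 0, they summed to 104, 0.795 and 0.11 CPM. The morning clock genes CCA1 (27.8, 39.6 and 50.6 CPM) and LHY (45.3, 71.0 and 69.1) were lowest in replicate 1. Of 6 clock genes 3 were lowest in replicate 2 (background 34.5%). The highest clock genes by TPM-like level were PRR7 (mean 111), TOC1 (63.3) and GI (30.8). Among the 5 meristem and flower genes, WUS alone was lowest in replicate 2, and STM, AP1, LFY and CLV3 were lowest in replicate 1. The part of leaf, guard cell or tapetum tissue, or of the hour of harvest, in the low replicate 2 was not tested, and in such pools fewer green cells and less RNA per cell cannot be told apart.

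Upstream sequence was read as a description, and whether a match goes with the low replicate 2 was not tested. The 250 bases before the annotated start of each gene (RefSeq, TAIR10.1) were searched on both strands for the CCAAT box (CCAAT), its extension CCAATC, which GLK factors are known to bind in Arabidopsis, the G-box CACGTG and the I-box GATAAG. Each CCAATC match is also a CCAAT match. The start is the outermost end annotated for the gene, and starts in use were not measured. Shown are the 2 highest members of the major antenna, the highest of the photosystem I antenna, and the highest of Rubisco and of photosystem I, 5′ to 3′ on the gene's strand, with capitals for matches to the CCAAT box, the G-box and the I-box.
LHCB1.3, chr1:10477635-10477884, plus strand: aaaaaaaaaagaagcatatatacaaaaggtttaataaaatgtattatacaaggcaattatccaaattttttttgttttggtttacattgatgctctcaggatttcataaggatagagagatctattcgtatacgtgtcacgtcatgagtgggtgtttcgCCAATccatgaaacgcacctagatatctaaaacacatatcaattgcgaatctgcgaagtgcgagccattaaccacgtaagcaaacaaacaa
LHCB1.5, chr2:14523569-14523818, minus strand: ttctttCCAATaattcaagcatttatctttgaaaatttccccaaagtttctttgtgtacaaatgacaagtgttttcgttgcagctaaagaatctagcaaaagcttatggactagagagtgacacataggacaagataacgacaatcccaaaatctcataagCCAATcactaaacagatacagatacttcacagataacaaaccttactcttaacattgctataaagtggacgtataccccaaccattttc
LHCA4, chr3:17495034-17495283, minus strand: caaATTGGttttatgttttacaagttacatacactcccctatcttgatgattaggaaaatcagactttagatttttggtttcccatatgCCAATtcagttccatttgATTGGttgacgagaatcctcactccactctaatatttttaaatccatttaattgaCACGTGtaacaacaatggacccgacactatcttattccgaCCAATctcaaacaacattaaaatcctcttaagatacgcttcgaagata
RBCS1A, chr1:25049668-25049917, minus strand: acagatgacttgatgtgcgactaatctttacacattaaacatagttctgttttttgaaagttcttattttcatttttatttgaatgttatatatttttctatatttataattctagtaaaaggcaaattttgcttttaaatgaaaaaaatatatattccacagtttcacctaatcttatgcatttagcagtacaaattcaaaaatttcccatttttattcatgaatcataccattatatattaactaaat
PSAF, chr1:11216142-11216391, minus strand: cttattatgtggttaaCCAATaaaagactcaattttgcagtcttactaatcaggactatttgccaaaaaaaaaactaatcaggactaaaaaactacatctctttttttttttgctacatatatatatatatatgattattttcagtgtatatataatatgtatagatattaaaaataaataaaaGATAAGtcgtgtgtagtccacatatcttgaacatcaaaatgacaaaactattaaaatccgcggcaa
LHCB1.3 and LHCB1.5 each held a CCAAT box near the same distance, starting 91 and 89 bases before the start, and LHCB1.5 held another 244 bases before it. LHCA4 held 4 CCAAT boxes and a G-box 88 bases before the start. PSAF held a CCAAT box 234 bases and an I-box 66 bases before the start. No match lay in the window of RBCS1A, which says only that these letters are not in it. The reference gives RBCS1A an exon length of 1268 bases for a coding length of 543, so the place of its window rests on that annotation. No photosystem II subunit is shown, a choice made after the matches were seen. In this window only PSBX held a CCAAT box and only PSBQ1 a G-box. With 50 bases after the start added, PSBO2 and PSBQ1 also held a CCAAT box. PSBO1, PSBO2, PSBR and PSBW then also held a G-box, and PSBQ1 and PSBY an I-box, so the scarcity rests on the window.

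The CCAAT box was found in 27 of 42 genes (64.3%), beside 46.0% of 27443 nuclear promoters of the same length. Antenna genes held most of these, with 18 of 20, against 9 of 22 among the RBCS, PSA and PSB genes. In the 250 bases before the start all 9 major antenna genes had it, and 1 of 8 PSB genes, PSBX, did. The longer CCAATC was present in 10 of 20 antenna genes and in 0 of 22 others, beside 10.2% of all promoters. With 50 bases after the start added, it was in 14 of 42 genes (33.3%, all promoters 12.3%), 3 of them outside the antenna (PSAF, PSBO2 and PSBQ1), so its absence from the others rests on the window. Its holders were LHCB1.3, LHCB1.5, all 3 LHCB2 genes, LHCB4.1, LHCB4.2, LHCA1, LHCA3 and LHCA4. The G-box was in 6 of 42 genes (14.3%, all promoters 6.49%) and the I-box in 8 (19.0%, all promoters 12.3%). These are matches of letters in a fixed window, not sites shown to be bound.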

How the data were processed

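The authors deposited raw counts, 1 whole number per gene and library with no normalisation; per the submitters' processing notes the build was TAIR10, and the named tools include HTSeq 0.6.1, TopHat2 2.1.0 with Bowtie2 2.2.5, and FastQC. Per the labels' protocols, RNA came from the PicoPure kit and strand-specific TruSeq libraries gave paired reads of 100 bp. Not given in the sources used here: settings, annotation release and multi-mapping rule.

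Of 32678 loci, 31912 matched the RefSeq annotation of TAIR10.1 by locus identifier, and all 42 members did. CPM used nuclear counts, and TPM-like levels divided CPM by the union of exons. Chloroplast loci were not analysed here. Variation between libraries was tested with edgeR 4.0.16 (R 4.3.3; TMM factors 1.002, 1.02 and 0.9782, trended dispersion, chi-square goodness of fit with 2 degrees of freedom, filterByExpr, Benjamini-Hochberg over 18334 nuclear genes, threshold 0.05). Tested on simulated data over 18334 genes, this step recovered 38 of 100 genes changed 2-fold in 1 library and 92 of 100 changed 4-fold. A count of 0 allows up to 3 counts, which covers counting error only. Coding identity (Biopython 1.88) stands in for the planned protein identity, for which no protein sequences were used here.

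The members, lists and measures were chosen with earlier results of these data known. Values are named for the 3 highest and 2 lowest genes of each class, for those that varied and for both sides of each ratio, and from other lists for the 3 highest and up to 3 below 1 CPM, with STM, WUS, AP1, CCA1, LHY, GLK1, GLK2 and HY5 in any case. Genes named beyond these were chosen after their values were seen. Alternatives in scaling (DESeq2 1.42.0 size factors), filter, dispersion, gene length and left-out libraries are given at the end.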

Additional observations from a re-analysis of the deposited data

How the results depend on the processing

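No paired analysis was possible because the 3 libraries form 1 group. The count of 2 members varying beyond the trend was the same with DESeq2 size factors, library size alone, no low-count filter, common dispersion and organelle genes counted in. The backgrounds of these settings ran from 2.48% to 3.26%. The count was 42 with Poisson variation alone, where 61% of all genes were called. It was 0 with near-identical copies summed (background 2.51%), where LHCB1.4 and RBCS2B are by construction a small part of their rows. Leaving out 1 library gave 0 to 2 calls: 0 without replicate 2, 1 (LHCB1.4) without replicate 3, where RBCS2B had an edgeR adjusted p of 0.0972, and 2 without replicate 1 (background 1.57%, 1.16% and 1.28%). The number of members lowest in replicate 2 was 41 under all 3 scalings (background 34.5% with TMM, 27.6% with library size alone and 35.1% with DESeq2 size factors), and 35 of 36 with copies summed, an alternative added after seeing the data. The members' share of nuclear counts ran from 2.82% to 3.06% when 1 library was left out. Of 14 ratios, 11 kept their sign in all alternatives, and 3 turned: PSAE1 over PSAE2 (0.31 by coding length, 0.29 with no length correction), PSAH1 over PSAH2 (0.53 by both) and PSBQ1 over PSBQ2 (-0.05 and -0.09). With 50 bases after the start added to the window, G-box matches came to 12 and I-box matches to 17 members, beside 7.68% and 14.6% of all promoters.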
